A study of Mus musculus with 9 samples.

Results

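The genes described here encode Polycomb repressive complex 2 (PRC2), the enzyme complex that methylates lysine 27 of histone H3, in mouse marrow stromal cells after loss of beta-catenin or inhibition of Ezh2. The members were 10 genes chosen by symbol from a count table of 23358 entries: the catalytic subunits Ezh2 and Ezh1, the core subunits Eed, Suz12 and Rbbp4, and the accessory factors Jarid2, Aebp2, Phf1, Mtf2 and Phf19. Each occurred once in the table, and all 10 passed the filter on low counts. The study sequenced RNA of 9 cultures of mesenchymal stem cells (MSCs), which adult C57BL/6 mouse marrow had supplied and which were used between passages 4 and 10, in 3 groups of 3 cultures that the series text calls biological replicates. The siBCat group received siRNA against beta-catenin, the product of Ctnnb1. The GSK126 group received a non-targeting siRNA with 5 µM GSK126, a small molecule that blocks the methyltransferase activity of EZH2. The siCTL group received the non-targeting siRNA alone. No inhibitor is named for siBCat in its titles, source names or columns, but its treatment label adds 5 µM GSK126; the groups follow the titles. All cultures were kept in osteogenic medium and lysed on day 4. The labels do not say how many animals the cells came from, so the p-values measure the spread between these cultures. In bulk RNA, fewer cells of a type and less RNA per cell cannot be told apart.

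PRC2 places methyl groups on H3 lysine 27, a mark of repressed developmental genes. EZH2 or its paralog EZH1 supplies the catalytic SET domain, which is active only when bound to EED and SUZ12; EED reads the finished mark and SUZ12 is the scaffold. The complex occurs in alternative forms. PRC2.2 carries JARID2 and AEBP2, whereas PRC2.1 carries 1 of the Polycomb-like proteins PHF1, MTF2 or PHF19, which bind DNA and the histone tail. Ezh2 is the form typical of dividing cells, and Ezh1 is found in dividing and resting cells. GSK126 acts on the enzyme, and the data here are transcript levels, not enzyme activity.

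Summed counts per library ran between 42324200 and 55898774, all counts were even, and levels are TMM-scaled CPM (the share of a library's counts, scaled to a common library size), with the standard deviation (SD) over the 3 libraries of a group. Ctnnb1, the siRNA target, had 19.3, 19.3 and 19.1 CPM in siBCat, 925, 950 and 906 CPM in GSK126, and 854, 860 and 879 CPM in siCTL, so the low libraries were those labelled for its siRNA. GSK126 replicate 3 stood apart: a trend with gene length held 21.4% of the variance of its deviations from its group, with a median log2 deviation of 0.17 in the shortest genes (lowest decile of length) and -0.23 in the longest (highest decile). That share was 7.09% and 9.08% in the other GSK126 libraries and between 0.039% and 0.563% in the siBCat and siCTL libraries. Of 13 marrow stromal markers 12 were tested, and Thy1 had 0 counts in every library. For the markers, higher and lower mean an edgeR adjusted p under 0.05. Over all genes tested, 35.2% passed in siBCat and 25.0% in GSK126, each against siCTL. In siBCat against siCTL 2 were higher, Cd44 (log2 fold change 0.85) and Ly6a (0.78), and 4 were lower, Vcam1 (-0.79), Cxcl12 (-0.65), Pdgfra (-0.29) and Col1a2 (-0.23). With GSK126, 3 were higher than in siCTL, Cxcl12 (1.09), Vcam1 (0.47) and Ly6a (0.38), and 3 were lower, Pdgfra (-0.59), Pdgfrb (-0.36) and Prrx1 (-0.31). Within GSK126, Pdgfra, Pdgfrb and Prrx1 were lowest in replicate 3. The part of the length trend in their falls was not tested. The summed level of the list was 24037 to 26119 CPM in siBCat, 34094 to 37077 CPM in GSK126 and 26820 to 31717 CPM in siCTL. This sum mostly follows Col1a2, Col1a1 and Cxcl12, which had the highest means. These were 13108, 7373 and 2396 CPM in siBCat, 16011, 10325 and 8002 CPM in GSK126, and 15383, 8871 and 3750 CPM in siCTL. Haematopoietic markers summed to between 12.0 and 12.7 CPM in siBCat, 9.36 and 11.8 CPM in GSK126, and 11.7 and 14.3 CPM in siCTL, with Ptprc and Emr1 at 0 counts in every library. Of their 5 tested members, Cd74 and Lyz2 were higher and Cd68 lower in siBCat than in siCTL, and Cd14 was lower in GSK126 than in siCTL. Cd14 was the largest part of these sums, with a mean of 8.93 CPM in siBCat, 7.53 CPM in GSK126 and 9.88 CPM in siCTL. Lyz2 was near the floor, with 12, 24 and 18 counts in siBCat and 2, 4 and 0 in siCTL. Endothelial markers summed to at most 2.23 CPM in siBCat, 2.26 CPM in GSK126 and 2.03 CPM in siCTL. The part of these markers in the results below was not tested.

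In siBCat cultures the catalytic paralog Ezh1, the core subunit Rbbp4 and the accessory factors Mtf2 and Phf19 fell against siCTL, and Ezh2 rose. The widest of these changes was that of Phf19, which averaged 1.63 ± 0.24 CPM in siBCat and 2.58 ± 0.16 CPM in siCTL. Thus 5 of the 10 members passed the test (adjusted p under 0.05, edgeR's quasi-likelihood test with Benjamini-Hochberg adjustment over all 13240 genes tested), where 35.2% of all genes did. For 6 members no library of one group lay within the range of the other, against 55.2% of all genes. The median log2 fold change of the members was -0.12, beside 0.0024 over all genes tested. In GSK126 cultures Phf19 and Ezh2 were the only members to pass the test against siCTL, and both were higher, with Phf19 at 5.99 ± 0.54 CPM in GSK126; 2 of 10 members compares with 25.0% of all genes. Groups did not overlap for 4 members, against 42.1% of all genes, and the median of the members was 0.012, beside 0.0063 over all genes. Both comparisons use the same siCTL libraries, so their values are given side by side. Directly between the treatments, siBCat against GSK126, 1 member was higher and 5 were lower, 6 of 10 beside 41.2% of all genes. Groups did not overlap for 6 members, against 52.5% of all genes, and the median was -0.13, beside -0.012. In the GSK126 comparison the count was 1 instead of 2 when siCTL replicate 1, siCTL replicate 2 or GSK126 replicate 1 was left out. In siBCat against GSK126 it was 3 instead of 6 without GSK126 replicate 1, siBCat replicate 1 or siBCat replicate 3. Without GSK126 replicate 3 the counts were 6 for siBCat against siCTL, 2 for GSK126 against siCTL and 6 for siBCat against GSK126.

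**Figure D1:**
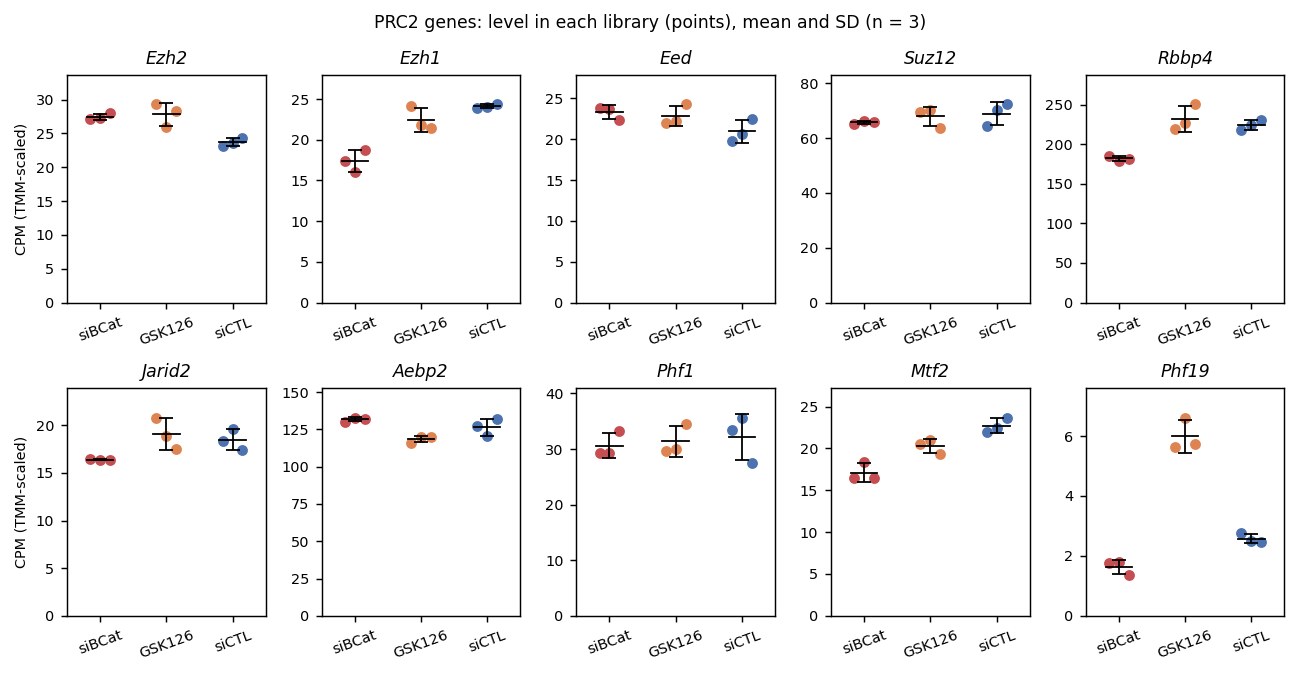
Level of each of the 10 PRC2 genes in CPM (vertical axis, starting at 0) in the siBCat, GSK126 and siCTL groups. Points are single libraries, and bars give the mean and SD of 3. Phf19 sits at 5.62 CPM or more in GSK126 and at 2.76 CPM or less in the other groups, and Ezh1, Rbbp4 and Mtf2 are lowest in siBCat.

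Ezh2 (chromosome 6, 47530139 to 47595341, minus strand, GRCm38, as in GENCODE M21) encodes the main catalytic subunit and the target of GSK126. It had 27.1, 27.3 and 28.0 CPM in siBCat, 29.3, 26.0 and 28.3 CPM in GSK126, and 23.1, 23.6 and 24.4 CPM in siCTL. Every treated library was above every siCTL library, and the treated groups overlapped each other. In siBCat against siCTL the log2 fold change was 0.21 (standard error, SE, 0.06, 95% interval 0.08 to 0.35, edgeR adjusted p = 0.0195), a rise of 15.8%. In GSK126 against siCTL it was 0.23 (SE 0.06, interval 0.10 to 0.37, edgeR adjusted p = 0.0169), a rise of 17.6%. Between siBCat and GSK126 the difference was -0.02 (interval -0.16 to 0.11, edgeR adjusted p = 0.812). Both rises stood near the threshold. The siBCat call was lost without siCTL replicate 1, siCTL replicate 2 or any 1 siBCat library, with edgeR adjusted p between 0.0524 and 0.0749, and at 0.0596 with scaling by library size alone. The GSK126 call was lost without siCTL replicate 1, siCTL replicate 2 or GSK126 replicate 1, with edgeR adjusted p between 0.0662 and 0.0751, and at 0.0649 with only the groups compared. Without GSK126 replicate 3 it was 0.22 with an edgeR adjusted p of 0.0126.

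Transcripts of dividing cells rose in GSK126 and, for some of them, in siBCat, each against siCTL. The 18 proliferation genes (DNA replication and mitosis genes such as Rrm2, the small subunit of ribonucleotide reductase) summed to between 1057 and 1090 CPM in siBCat, 1468 and 1490 CPM in GSK126, and 920 and 927 CPM in siCTL. In siBCat against siCTL 9 of 18 rose and 0 fell, with a median log2 fold change of 0.18, where 35.2% of all genes passed. The others did not pass, among them Ccna2 (0.02), Top2a (-0.01) and Mki67 (-0.19). With GSK126 all 18 rose against siCTL, with a median of 0.64, where 25.0% of all genes passed. In siBCat against GSK126 0 were higher and 17 were lower, where 41.2% of all genes passed. Ezh2 was at -0.02 between these groups. Rrm2 changed by 0.70 in siBCat and 1.11 in GSK126, and Mcm3, part of the replicative helicase, by 0.31 in siBCat and 0.89 in GSK126. Mcm5 was at 0.36 in siBCat and 0.73 in GSK126, Aurka at 0.40 in siBCat, and Ccna2 at 0.85 in GSK126. Their part in the Ezh2 result was not tested.

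Ezh1 (chromosome 11, 101191115 to 101226463, minus strand), the catalytic paralog with the weaker methyltransferase activity, moved the other way. It had 17.4, 16.0 and 18.7 CPM in siBCat, 24.2, 21.8 and 21.5 CPM in GSK126, and 23.9, 24.1 and 24.4 CPM in siCTL. All siBCat libraries lay below all others, and GSK126 and siCTL overlapped. Ezh1 fell by 28.0% in siBCat against siCTL (log2 fold change -0.47, SE 0.07, interval -0.63 to -0.31, edgeR adjusted p = 0.000338). For GSK126 against siCTL the value was -0.10 (interval -0.26 to 0.06, edgeR adjusted p = 0.340). Ezh1 was also lower in siBCat than in GSK126 (log2 fold change -0.37, SE 0.07, edgeR adjusted p = 0.0015). Both siBCat calls held under all 18 alternatives tried.

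The stretches upstream of these catalytic genes are shown because Ezh2 and Ezh1 moved in opposite directions in siBCat, and that of Phf19 because it changed most. Sequences are from RefSeq (GRCm38.p6), with capitals marking letters of 3 searched motifs and the printed part kept outside annotated exons: Ezh2 chr6:47595059-47595183, Ezh1 chr11:101226464-101226713 and Phf19 chr2:34914027-34914226, all on the minus strand.
Ezh2: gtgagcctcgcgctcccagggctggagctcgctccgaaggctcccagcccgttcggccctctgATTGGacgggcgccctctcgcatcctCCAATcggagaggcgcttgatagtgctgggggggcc
Ezh1: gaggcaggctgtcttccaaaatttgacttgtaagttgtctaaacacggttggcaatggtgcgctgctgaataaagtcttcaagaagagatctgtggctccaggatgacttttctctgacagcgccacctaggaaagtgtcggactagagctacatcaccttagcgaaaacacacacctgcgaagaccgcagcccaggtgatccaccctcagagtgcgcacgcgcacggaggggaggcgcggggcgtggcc
Phf19: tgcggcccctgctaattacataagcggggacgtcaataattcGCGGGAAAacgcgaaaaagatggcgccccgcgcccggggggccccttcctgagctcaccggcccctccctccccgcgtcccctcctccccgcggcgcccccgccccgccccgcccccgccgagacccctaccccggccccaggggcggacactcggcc
The motifs were E2F (TTTCCCGC, TTTGGCGC, TTTCGCGC or TTTGCCGC), TCF/LEF, the DNA-binding partners of beta-catenin (CTTTGAT or CTTTGAA), and the CCAAT box (CCAAT), on both strands, and no motif's letters contain another's. All 10 members matched a RefSeq promoter, with 14 windows of 250 bases before a start. The Phf19 window held E2F letters 208 bases before the start, the Ezh2 window held CCAAT letters at 3 places, 2 of them in the printed stretch, and the Ezh1 window held none of the motifs. Only Suz12 among the other members held E2F or TCF/LEF letters, with 1 match to each. Over 32851 such windows, 1.86% held the E2F letters, 7.48% the TCF/LEF letters and 33.8% the CCAAT letters. A match is a description of these letters and no measurement of binding.

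The core subunits split. Rbbp4 (chromosome 4), a histone-binding WD40 protein that also serves other chromatin complexes, was the member with the highest level. It had 186, 179 and 182 CPM in siBCat, 219, 227 and 251 CPM in GSK126, and 219, 225 and 231 CPM in siCTL. All siBCat libraries were below all others. Rbbp4 fell by 18.9% in siBCat against siCTL (log2 fold change -0.30, SE 0.06, edgeR adjusted p = 0.00109) and was lower in siBCat than in GSK126 (-0.35, SE 0.06, edgeR adjusted p = 0.000285). In GSK126 against siCTL it was at 0.05 (interval -0.07 to 0.17, edgeR adjusted p = 0.562). In GENCODE M21 its exons share 782 bases with exons of Sync on the opposite strand, and whether counting used strand is not given in the sources used here. Sync did not pass the test in siBCat (-0.12) or in GSK126 (-0.15) against siCTL.

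Suz12 and Eed passed the test in no comparison. Suz12 (chromosome 11) had 65.0, 66.2 and 66.0 CPM in siBCat, 69.7, 70.2 and 63.7 CPM in GSK126, and 64.2, 70.1 and 72.3 CPM in siCTL, with all groups overlapping. Its log2 fold change was -0.07 in siBCat (interval -0.20 to 0.06) and -0.02 in GSK126 (interval -0.15 to 0.11), each against siCTL. A change beyond 0.20 in either direction therefore lay outside both intervals. Eed (chromosome 7) had 23.9, 23.7 and 22.3 CPM in siBCat, 22.1, 22.3 and 24.3 CPM in GSK126, and 19.8, 20.6 and 22.5 CPM in siCTL. Its log2 fold change was 0.15 in siBCat (interval -0.0045 to 0.30, edgeR adjusted p = 0.123) and 0.12 in GSK126 (interval -0.03 to 0.28, edgeR adjusted p = 0.225). These intervals include the size of the Ezh2 rise. Eed shares 261 exonic bases with E230029C05Rik on the opposite strand, which had at most 2 counts in a library.

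The accessory factors of PRC2.2 passed the test between the treatments and not against siCTL. Jarid2 (chromosome 13), which binds ubiquitylated H2A and brings PRC2 to chromatin, had 16.4, 16.4 and 16.4 CPM in siBCat, 20.8, 18.9 and 17.5 CPM in GSK126, and 18.4, 19.7 and 17.4 CPM in siCTL. The siBCat libraries were below all others, and GSK126 and siCTL overlapped. Jarid2 was lower in siBCat than in GSK126 (-0.22, SE 0.08, edgeR adjusted p = 0.0409), and in siBCat against siCTL it was at -0.17 (interval -0.34 to -0.0027, edgeR adjusted p = 0.107). Both values lay near the threshold. The difference from GSK126 was lost under 9 alternatives, including without siCTL replicate 1 or 2, GSK126 replicate 1 or 2, or any 1 siBCat library (edgeR adjusted p between 0.0513 and 0.197). Conversely, the value against siCTL passed the threshold without GSK126 replicate 3 (edgeR adjusted p = 0.0364). Jarid2 was at 0.04 in GSK126 against siCTL (interval -0.12 to 0.21).

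Aebp2 (chromosome 6), a zinc finger partner of Jarid2 in PRC2.2, had 130.1, 132.9 and 132.0 CPM in siBCat, 116.2, 119.6 and 119.9 CPM in GSK126, and 127.1, 120.4 and 131.9 CPM in siCTL. All GSK126 libraries lay below all others, by a small margin against siCTL replicate 2. It was higher in siBCat than in GSK126 by 0.15 (SE 0.05, edgeR adjusted p = 0.0263), the one member higher in that comparison. Against siCTL it was at 0.06 in siBCat (edgeR adjusted p = 0.391) and -0.09 in GSK126 (interval -0.20 to 0.01, edgeR adjusted p = 0.189). The difference between treatments was lost without GSK126 replicate 1 or any 1 siBCat library (edgeR adjusted p between 0.0574 and 0.0846). It was also lost with scaling by library size (0.08, edgeR adjusted p = 0.247) and once the length trend was removed (0.11, edgeR adjusted p = 0.174). Aebp2 is the longest of the members, at 6616 bases in the table, and the part of the length trend in its values was not tested further.

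Among the Polycomb-like factors of PRC2.1, Phf19 showed the widest changes of all members. Phf19 (chromosome 2, 34893757 to 34914026, minus strand) reads methylated H3 lysine 36 through its Tudor domain and is best known from embryonic stem cells. It was also the member with the fewest reads, with counts of 72, 88 and 62 in siBCat, 318, 288 and 296 in GSK126, and 122, 114 and 116 in siCTL. As levels these were 1.75, 1.78 and 1.36 CPM in siBCat, 5.62, 6.62 and 5.74 CPM in GSK126, and 2.76, 2.51 and 2.46 CPM in siCTL. The groups stood fully apart, GSK126 highest and siBCat lowest. Phf19 rose 2.32-fold in GSK126 against siCTL (log2 fold change 1.21, SE 0.14, interval 0.92 to 1.51, edgeR adjusted p = 3.62e-05). It fell in siBCat against siCTL by 0.66 on the log2 scale, 1.58-fold lower (SE 0.15, interval -0.99 to -0.33, edgeR adjusted p = 0.00458). The direct comparison put siBCat 3.67-fold lower than GSK126 (-1.87, SE 0.14, edgeR adjusted p = 5.18e-07). Of all genes tested, 2.46% changed at least as much in GSK126 against siCTL and 12.0% in siBCat against siCTL. The 3 calls held under all 18 alternatives. Without GSK126 replicate 3, Phf19 was at 1.24 in GSK126 against siCTL (edgeR adjusted p = 2.28e-06). The sum of the 18 proliferation genes, given above with Ezh2, was highest in GSK126 and higher in siBCat than in siCTL. In siBCat against siCTL 9 of the 18 passed, where 35.2% of all genes did. The part of these genes in the Phf19 result was not tested.

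Mtf2 (chromosome 5), the Polycomb-like protein that binds unmethylated CpG-rich DNA, had 16.5, 18.4 and 16.5 CPM in siBCat, 20.6, 21.0 and 19.3 CPM in GSK126, and 21.9, 22.4 and 23.7 CPM in siCTL. Its groups stood apart in the order siBCat, GSK126, siCTL, lowest first. Mtf2 fell by 24.5% in siBCat against siCTL (log2 fold change -0.41, SE 0.07, edgeR adjusted p = 0.000777). In GSK126 against siCTL it was at -0.16 (interval -0.32 to -0.0084, edgeR adjusted p = 0.113). It was lower in siBCat than in GSK126 (-0.24, SE 0.07, edgeR adjusted p = 0.0157). That call was lost without GSK126 replicate 1 or 2 or siBCat replicate 1 or 3 (edgeR adjusted p between 0.0544 and 0.0716). Mtf2 shares 395 exonic bases with Tmed5 on the opposite strand, and Tmed5 rose by 0.39 in siBCat against siCTL (edgeR adjusted p = 4.68e-05), the other direction from Mtf2.

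Phf1 (chromosome 17), whose Tudor domain also binds methylated H3 lysine 36, had 29.3, 29.3 and 33.2 CPM in siBCat, 29.6, 30.0 and 34.5 CPM in GSK126, and 33.4, 35.7 and 27.5 CPM in siCTL. All groups overlapped. Its log2 fold change was -0.07 in siBCat (interval -0.28 to 0.14) and -0.04 in GSK126 (interval -0.24 to 0.17) against siCTL, and -0.04 (interval -0.25 to 0.17) in siBCat against GSK126. In GENCODE M21 Phf1 shares 1370 exonic bases with Cuta on the opposite strand, the widest such overlap of a member with a gene of the table. The table gives Cuta a length of 650 bases, so the overlap of the models that were counted is not known. Cuta was higher in GSK126 than in siCTL by 0.40 (edgeR adjusted p = 0.0125), and its reads cannot be told apart from those of Phf1 if strand was not used.

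**Figure D2:**
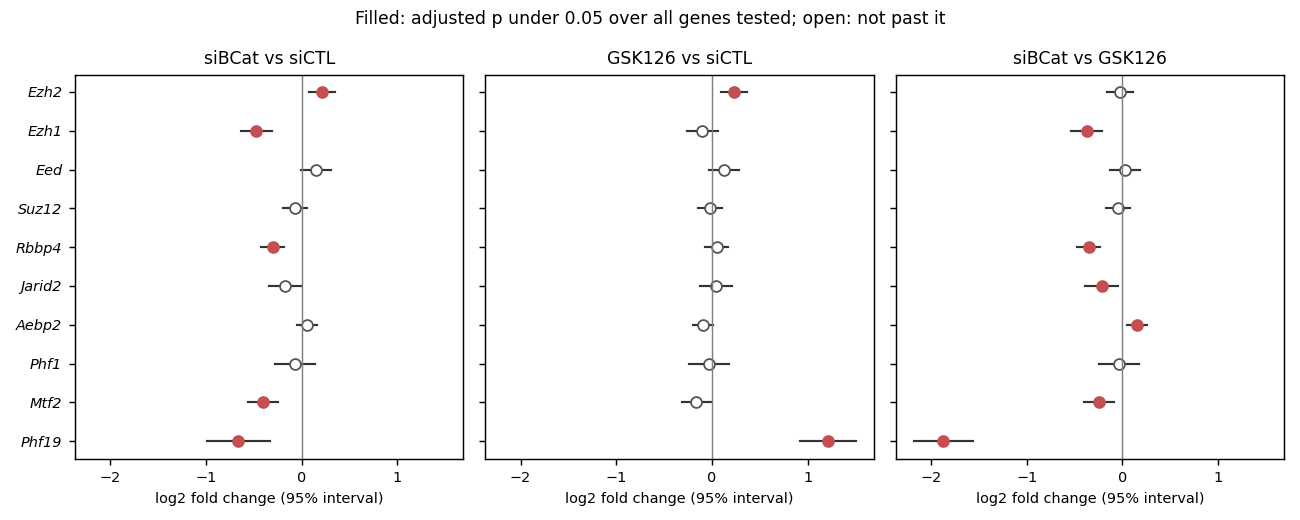
Log2 fold change (horizontal axis) of each PRC2 gene with its 95% interval, for siBCat against siCTL, GSK126 against siCTL and siBCat against GSK126. Filled points passed an adjusted p of 0.05 over all genes tested and open points did not. Phf19 lies at -0.66 for siBCat and 1.21 for GSK126, and Ezh2 at 0.21 and 0.23.

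The use of paralogs within a library does not depend on scaling between libraries, but a trend with gene length can move it. Lengths in the table were 2667 bases for Ezh2 and 4194 for Ezh1, and 2429 for Phf1 and 5230 for Mtf2. The part of the length trend of the GSK126 libraries in the shares was not tested. Counts were divided by the gene length given in the table, and the share of Ezh2 in the sum of Ezh1 and Ezh2 was computed per library. Ezh2 made up 71.0%, 72.8% and 70.2% in siBCat, 65.6%, 65.2% and 67.5% in GSK126, and 60.3%, 60.7% and 61.1% in siCTL. The groups did not overlap, with siBCat highest. The means were 71.3% ± 1.34 in siBCat, 66.1% ± 1.22 in GSK126 and 60.7% ± 0.413 in siCTL (SD, n = 3 each). Each of the 3 pairs of groups gave p = 0.1 by an exact two-sided permutation test, the smallest p that 3 against 3 libraries allow, so this design cannot reach 0.05. In siBCat both paralogs moved the share, Ezh2 up and Ezh1 down, and in GSK126 only the Ezh2 change passed the test. The level of the share depends on the lengths used. With the full exon length of GENCODE M21 it was 63.8% in siBCat, 58.0% in GSK126 and 52.3% in siCTL.

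Phf19 made up 2.99%, 2.96% and 2.11% of the summed Polycomb-like transcripts per length in siBCat, 8.52%, 9.74% and 7.89% in GSK126, and 3.95%, 3.42% and 3.98% in siCTL. The groups did not overlap (exact permutation p = 0.1 for each pair, two-sided). Phf19 thus remained the smallest of the 3 in every group even where it was highest. Phf1 was the largest, at 77.2% ± 2.24 in siBCat, 70.1% ± 2.64 in GSK126 and 72.3% ± 3.27 in siCTL. The Phf1 share in siBCat did not overlap that in siCTL or in GSK126 (exact permutation p = 0.1 each, two-sided). Between GSK126 and siCTL it overlapped (exact permutation p = 0.4, two-sided). Mtf2 made up 20.1% ± 1.80 in siBCat, 21.1% ± 1.88 in GSK126 and 23.9% ± 3.06 in siCTL, and its groups overlapped (exact permutation p = 0.2, 0.4 and 0.5, two-sided, for siBCat against siCTL, GSK126 against siCTL and siBCat against GSK126). The fall of Mtf2 CPM in siBCat did not appear as a separation of its share. The log2 ratio of PRC2.2 factors (Jarid2 and Aebp2) to PRC2.1 factors (Phf1, Mtf2 and Phf19) was 0.47 ± 0.06 in siBCat, 0.19 ± 0.07 in GSK126 and 0.28 ± 0.17 in siCTL. It did not overlap between siBCat and GSK126 (exact permutation p = 0.1), but overlapped between siBCat and siCTL (p = 0.2) and between GSK126 and siCTL (p = 0.4). These tests were two-sided over 3 against 3 libraries. Adjustment over the pairs would leave each p at or above these values. In the log2 ratio Aebp2 was the larger part of the PRC2.2 sum, at 19.1 CPM per kilobase against 3.00 for Jarid2 in siCTL. Phf1 was the largest part of the PRC2.1 sum, and may hold reads of Cuta if strand was not used. The ratio therefore mostly follows Aebp2 and Phf1.

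**Figure D3:**
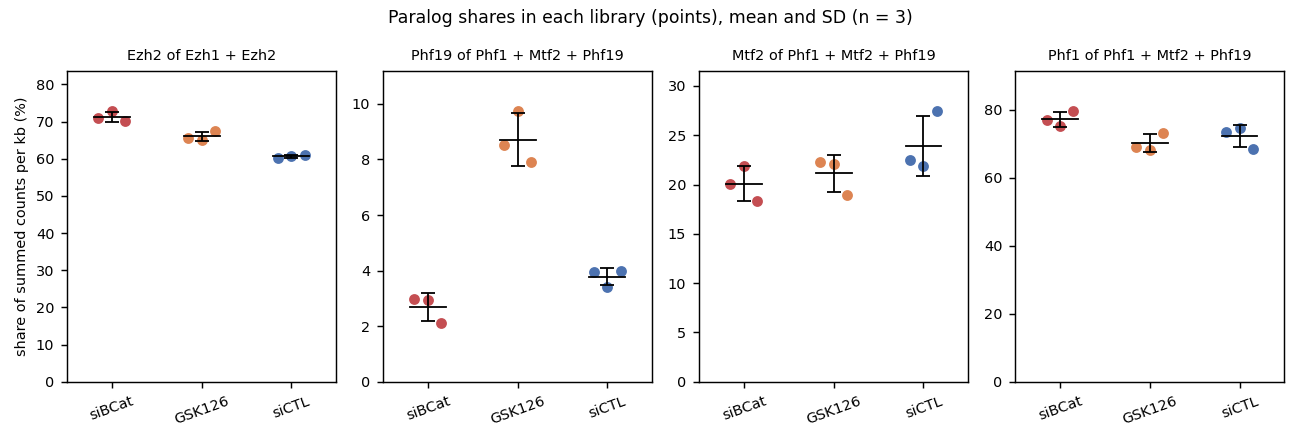
Share in percent (vertical axis, starting at 0) of Ezh2 in Ezh1 plus Ezh2, and of Phf19, Mtf2 and Phf1 in their sum, from counts per kilobase. Points are libraries of siBCat, GSK126 and siCTL, and bars give the mean and SD of 3. The Ezh2 share averages 71.3% in siBCat, 66.1% in GSK126 and 60.7% in siCTL, and the Phf19 share 2.69%, 8.72% and 3.78% in the same groups.

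Levels between members were compared per kilobase (kb) of the length in the table. The order was the same in all groups: Rbbp4, Aebp2, Suz12, Phf1, Eed, Ezh2, Ezh1, Mtf2, Jarid2 and Phf19, highest first. Rbbp4 averaged 41.3 CPM per kb in siBCat, 52.7 in GSK126 and 51.0 in siCTL. Ezh2 stood at 10.3 CPM per kb in siBCat, 10.4 in GSK126 and 8.89 in siCTL, and Ezh1 at 4.14 in siBCat, 5.36 in GSK126 and 5.75 in siCTL. Phf19 stood at 0.436 CPM per kb in siBCat, 1.60 in GSK126 and 0.689 in siCTL. Libraries of neighbours in this order did not overlap within a group, except Eed and Ezh2 in GSK126. With full exon lengths the order changed in the middle: Suz12 stood above Aebp2 in GSK126 and siCTL, and Mtf2 stood above Ezh1 in every group and above Ezh2 in siCTL.

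**Figure D4:**
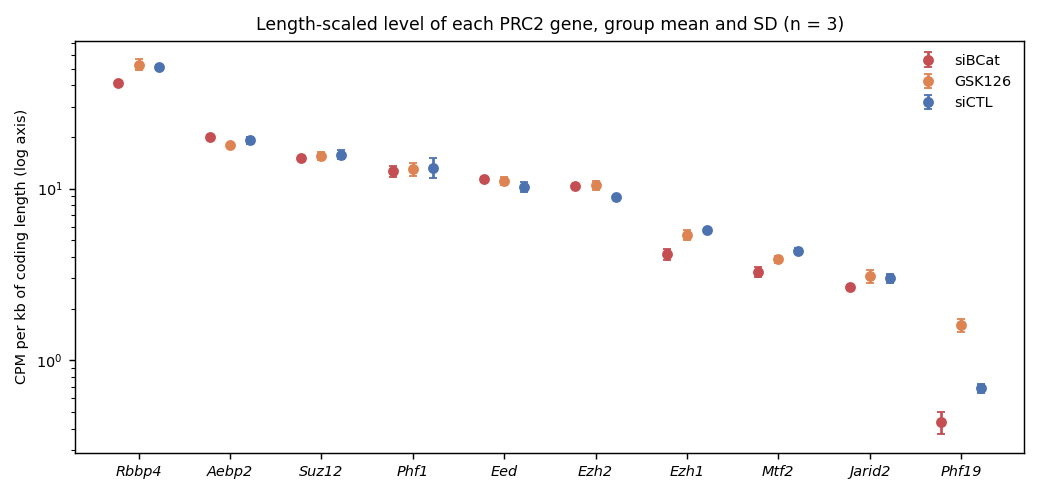
Mean level of each PRC2 gene in CPM per kilobase (log axis) in siBCat, GSK126 and siCTL, with the SD of 3 libraries, ordered from highest to lowest. Rbbp4 is highest at 41.3 to 52.7 CPM per kb, and Phf19 lowest at 0.436 to 1.60 CPM per kb.

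Genes that work beside PRC2 were described from lists. Against siCTL, 35.2% of all genes tested passed in siBCat and 25.0% in GSK126. Of 4 tested genes for other PRC2-associated proteins, Epop (listed as E130012A19Rik), a PRC2.1 subunit, rose in both treatments against siCTL. It had 1.66, 2.02 and 1.79 CPM in siBCat, 2.01, 1.52 and 1.32 CPM in GSK126, and 0.81, 0.93 and 0.64 CPM in siCTL, from counts of 30 to 114. Its log2 fold change was 1.21 in siBCat (edgeR adjusted p = 0.0013) and 1.03 in GSK126 (edgeR adjusted p = 0.00588), and the treated libraries were all above the siCTL libraries. Rbbp7, the close paralog of Rbbp4, fell in siBCat against siCTL (-0.22, edgeR adjusted p = 0.00341) as Rbbp4 did, and was at 0.01 in GSK126 (edgeR adjusted p = 0.902). Ezhip (listed as AU022751), which encodes an inhibitor of PRC2, had 0 counts in every library. The last list held 3 genes of the H3K27 demethylase family, whose enzyme activity was not measured. Uty was at 0.03 (edgeR adjusted p = 0.828), Kdm6a at -0.11 (edgeR adjusted p = 0.352) and Kdm6b at 0.07 (edgeR adjusted p = 0.727) in siBCat against siCTL. In GSK126 against siCTL Uty fell by 0.44 (edgeR adjusted p = 0.00375), with Kdm6a at -0.18 (edgeR adjusted p = 0.161) and Kdm6b at -0.14 (edgeR adjusted p = 0.479). Uty, with a length of 5228 bases, had 26.7, 26.0 and 21.4 CPM in GSK126, lowest in replicate 3. The part of the length trend in the Uty fall was not tested.

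PRC1, the partner complex that ubiquitylates H2A, had 19 genes, all tested. In siBCat against siCTL 2 rose and 6 fell, with a median of -0.09. The share of all genes that passed was 35.2% there, 25.0% in GSK126 against siCTL and 41.2% in siBCat against GSK126. The falls included Cbx7, a reader of methylated H3 lysine 27 (log2 fold change -1.92), Cbx6 (-0.71), Rybp, a subunit of variant PRC1 (-0.66), and Phc1 (-0.38). Against siCTL, 3 rose and 2 fell in GSK126, with a median of 0.08. Here Rybp (-0.28) and Phc2 (-0.22) fell, while Cbx6 (0.21) rose. Cbx7 had 1.36, 0.97 and 1.31 CPM in siBCat, 5.19, 4.69 and 5.59 CPM in GSK126, and 4.80, 4.85 and 4.07 CPM in siCTL, so the siBCat libraries stood apart from both other groups. In siBCat against GSK126 4 PRC1 genes were higher and 9 lower. Of the 12 tested E2f, Rb and Myc genes, 1 rose (Myc, 0.68) and 1 fell (E2f1, -0.30) in siBCat against siCTL. In GSK126 6 rose and 0 fell, among them E2f1 (0.41), E2f7 (0.66), Myc (0.32) and E2f2 (1.57).

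Of 22 genes often named as carrying the PRC2 mark, 11 were too low to be tested. Among all genes tested, 35.2% passed in siBCat and 25.0% in GSK126, each against siCTL. In siBCat against siCTL 1 rose (Hoxc10, 0.30) and 3 fell (Hoxa13 at -0.91, Wnt10b at -0.65 and Tbx15 at -0.14), with a median of -0.14. In GSK126 2 rose (Bmp2 at 2.48 and Gata6 at 0.42) and 2 fell (Hoxa13 at -0.29 and Tbx15 at -0.15), with a median of 0.05. Bmp2, a bone-inducing growth factor, had 1.66, 2.07 and 2.21 CPM in GSK126 and 0.41, 0.26 and 0.38 CPM in siCTL. Whether these genes carried the mark in these cells was not analysed here.

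The genes whose pattern over the 9 libraries was most like that of Ezh2 were Ube2t (Pearson r = 0.97), Zfp367, Tspan12 and Nsdhl (0.95 each) and Myom1 (0.94), among 9455 genes compared. For Ezh1 they were Adamts7 (0.99), Zfp41 (0.98), Pxk, Per2 and Tcn2 (0.97 each). For Phf19, added after its values were seen, they were Ltbp2, Cxcl12, Marcks and Creg1 (0.99 each) and D2Ertd750e (0.98). The 9 libraries form 3 groups, so these values describe a shared order of groups.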

How the data were processed

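RNA-seq counts of 9 libraries were used. The tools, per the submitters' processing notes, were TopHat2 2.0.6, HTSeq and bcl2fastq with build mm10; their roles and the annotation and strand setting were not given in the sources used here. Per the file headers the authors deposited, for each gene and library, a raw count and an RPKM value, with a coding length; 37.8% of these lengths are multiples of 3. RPKM entered only as an alternative for shares and to recover library totals, of which summed counts were 89.8% to 90.7%. All counts were even (0 odd values). Another 6 per-sample columns, of samples not described in the labels used here, and ChIP-seq data were not used. Of the entries, 69 share 26 names, none a member.

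Groups followed titles. R 4.3.3 with edgeR 4.0.16 fitted all 9 libraries together: filterByExpr (minimum count 10, total 15), TMM, robust quasi-likelihood, Benjamini-Hochberg over 13240 genes, threshold 0.05; 10118 entries were filtered out. Residual degrees of freedom were 6, and the common biological coefficient of variation 8.12%. The labels do not say whether replicate numbers pair cultures. Deviations of same-numbered libraries had correlations between -0.03 and 0.07, which cannot settle it, and the main fit used no pairing. The procedure was tested on simulated data. Alternatives were DESeq2 1.42.0, its size factors, library-size scaling, no filter, 1 CPM in 3 libraries, only the groups compared, a replicate block, halved counts, a removed length trend (loess, span 0.5), other lengths and leaving out each library. Shares used exact permutation tests in Python 3.11.15 with scipy 1.17.1. Promoters came from RefSeq and gene positions and overlaps from GENCODE M21.

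Members and lists were chosen with earlier results of these data known. Named genes were all members, up to 4 called genes per list and treatment with the smallest adjusted p, and the 5 genes most like Ezh2 and Ezh1 (prior count 2, mean of at least 5 CPM, no predicted genes); Sync, Tmed5, Cuta, E230029C05Rik, Ctnnb1, absent markers, called markers beyond 4 and the genes most like Phf19 were named outside this rule. List genes that did not pass were named for completeness. One gene that this rule names is not reported here.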

Additional observations from a re-analysis of the deposited data

How the results depend on the processing

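Of 540 comparisons of a member's fold change under an alternative (30 fold changes, 18 alternatives each), 495 kept direction and call, 29 lost the call, 3 gained it and 13 changed sign. Of 13 calls, 8 held throughout: Ezh1, Rbbp4, Mtf2 and Phf19 for siBCat against siCTL, Phf19 for GSK126 against siCTL, and Ezh1, Rbbp4 and Phf19 for siBCat against GSK126. The number of members called for GSK126 against siCTL was 1 with only the groups compared. Leaving out 1 library gave 4 to 6 members for siBCat against siCTL, 1 to 2 for GSK126 against siCTL and 3 to 6 for siBCat against GSK126. With a replicate block the counts stayed at 5, 2 and 6, and whether the numbers pair the cultures is not known. No value that changed sign had been called. With library size only, GSK126 against siCTL gave Suz12 0.0116 and Phf1 0.0025, and siBCat against GSK126 gave Eed -0.0438. With the length trend removed, Suz12 was at 0.0220 and Aebp2 at 0.0121 for GSK126 against siCTL. Leaving out 1 library gave, for GSK126 against siCTL, Suz12 between -0.0748 and 0.0193, Phf1 between -0.140 and 0.0321, Jarid2 between -0.0299 and 0.102 and Rbbp4 between -0.0123 and 0.0823. For siBCat against GSK126 it gave Ezh2 between -0.0649 and 0.0221 and Phf1 between -0.0940 and 0.0398. The cause was not tested. Depth limited Phf19 most, with as few as 62 counts in a library.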

Other observations

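Other chromatin genes and bone markers were described from lists, beside 35.2% of all genes that passed in siBCat and 25.0% in GSK126 against siCTL. Of 14 other lysine methyltransferases of the SET family, 1 rose (Suv39h1, an H3 lysine 9 enzyme, log2 fold change 0.24) and 1 fell (Ehmt1, -0.27) in siBCat against siCTL. In GSK126 against siCTL 1 rose (Suv39h2, 0.47) and 4 fell, among them Setd2, an H3 lysine 36 methyltransferase (-0.30), Setdb1 (-0.21) and Nsd3, listed as Whsc1l1 (-0.31). Setd2 had 91.8, 92.9 and 73.3 CPM and Nsd3 81.3, 84.2 and 61.0 CPM in GSK126, lowest in replicate 3. At 8350 and 11646 bases in the table both are long, and long genes ran low in that library. The part of the length trend in these falls was not tested. Of 3 tested genes of PR-DUB, the complex that removes ubiquitin from H2A, Bap1 rose by 0.18 in siBCat against siCTL. In GSK126 against siCTL Bap1 was at 0.08 (edgeR adjusted p = 0.32), Asxl1 at -0.08 (edgeR adjusted p = 0.383) and Asxl2 at -0.26 (edgeR adjusted p = 0.145). Of 7 tested osteoblast markers, Dmp1 and Spp1 were higher and Alpl, Phex and Runx2 lower in siBCat than in siCTL. Alpl and Ibsp were higher and Dmp1, Phex and Spp1 lower in GSK126 than in siCTL. Ibsp was near the floor, with 46, 38 and 46 counts in GSK126 and 8, 4 and 14 in siCTL. Bglap and Bglap2 were too low to be tested. Of 2 tested endothelial markers, Kdr was higher and Vwf lower in siBCat than in siCTL.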
